A study of Mus musculus with 8 samples.

Results

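Bach2 and Satb1 encode nuclear regulators of resting T cells, and the Foxp3 binding sites at these 2 genes are described here. Each site in the deposited tables was given the protein-coding RefSeq gene whose body, extended by 5 kb on each side, held its centre, or otherwise the gene with the nearest end within 100 kb. By this rule 9 sites belonged to Bach2 and 10 to Satb1, which is 19 of the 5521 sites in all and of the 5210 sites given a gene. The rule used positions and gene annotation, not read counts. BACH2 is a leucine zipper repressor that pairs with small MAF proteins and contends with AP-1 factors for a shared DNA motif, and it restrains the passage of T cells, regulatory T (Treg) cells included, into effector states. SATB1 binds AT-rich DNA and organises chromatin loops in thymocytes and naive T cells, and its gene is known as a target that Foxp3 holds down in Treg cells.

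The study measured Foxp3 on chromatin by CUT&Tag, a method in which an antibody directs a transposase to cut and tag DNA beside its target. Treg cells (CD4+hCD2+GFP-) from spleen and lymph nodes of mice of strain C57BL6/J were used freshly sorted. The mice were Foxp3WT-IRES-hCD2/Foxp3-IRES-GFP (WT) or Foxp3R397W-IRES-hCD2/Foxp3-IRES-GFP (R397W, a missense change in the DNA-binding forkhead domain). All groups therefore share a Foxp3-IRES-GFP reporter allele, and the sort took cells positive for the hCD2 reporter and negative for GFP. Each genotype had 2 libraries with anti-Foxp3 and 2 with normal rabbit IgG as background, 8 in all, and ages were not analysed here. The labels do not say whether replicates 1 and 2 came from separate mice, so p-values measure the spread between these libraries, which may be technical. The tables hold binding sites and no RNA, so the sorted cell type was not checked against marker expression.

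The authors sorted the sites into common, cTreg-specific and eTreg-specific classes. Values are normalised read counts, scaled by the authors with a separate factor for each library and class table. Reads in all listed sites ranged from 111274 to 394196 per library. The replicates differed in coverage, with reads at 96.9% of all sites in WT Foxp3 replicate 1 and at 55.6% in replicate 2. The R397W Foxp3 libraries covered 84.3% and 44.5%, the WT IgG libraries 73.0% and 33.2%, and the R397W IgG libraries 81.1% and 39.9%. Coverage was thus lower in the library numbered 2 of every group, although in all groups but WT IgG that library had more listed reads than the one numbered 1. In the cTreg-specific table, a count of 0 allows up to 3 reads, equal to a normalised value of 1.55 in WT Foxp3 replicate 2, 2.13 in R397W Foxp3 replicate 2, 1.93 in WT IgG replicate 2 and 1.96 in R397W IgG replicate 2. These limits cover counting error only.

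All 10 Satb1 sites were cTreg-specific, whereas Bach2 had 5 common, 2 cTreg-specific and 2 eTreg-specific sites. Among all sites with a gene 70.4% were common, 12.7% cTreg-specific and 16.8% eTreg-specific. Satb1 was the single gene among the 192 genes with 5 or more sites whose sites were all cTreg-specific. Under the 100 kb limit only Foxp1, a forkhead factor of naive T cells, had more cTreg-specific sites (12 of its 21), and Ripor2 had 8 of 14. With a limit of 10 kb Satb1 kept 6 sites and with the gene body alone 4, below the 12 of Foxp1 and the 8 of Ripor2, which did not change. On gene bodies 5 genes had more cTreg-specific sites than Satb1. Its 4 sites there are fewer than the 5 required above, so that statement rests on sites outside the body. Bach2 was 1 of 56 genes, out of 2760 with a site, that held all 3 classes. These counts are descriptions of the authors' classes and carry no test.

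**Figure D1:**
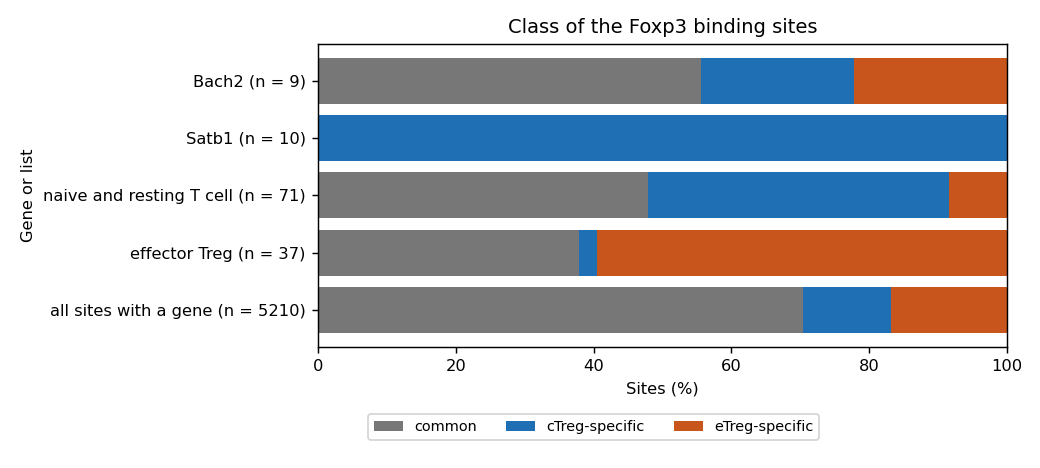
Share of sites in each class (horizontal axis, percent of sites) for Bach2, Satb1, 2 gene lists and all sites with a gene, with the number of sites in brackets. The Satb1 bar is entirely cTreg-specific, while 55.6% of Bach2 sites are common.

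The lists of related genes gave the same kind of description. Of 16 naive and resting T cell genes, 15 had a site, and their 71 sites were 34 common, 31 cTreg-specific and 6 eTreg-specific. Of 20 effector Treg genes, 12 had a site, and their 37 sites were 14 common, 1 cTreg-specific and 22 eTreg-specific. Among the dimerisation relatives and partners of BACH2, 3 of 8 genes (Nfe2, Nfe2l1 and Nfe2l2) had 4 sites, 3 of them common and 1 eTreg-specific. Neither Bach1 nor a small MAF gene had a site. AP-1 and BATF factors had 7 sites at 4 of 11 genes (Atf3, Fos, Fosb and Fosl2), 5 common and 2 eTreg-specific. Of 8 chromatin organisers listed with SATB1, Cux1, Smarca4 and Smarca5 had 1 site each, 2 common and 1 eTreg-specific. Core Treg genes had 23 sites at 5 of 6 genes, 17 common, 2 cTreg-specific and 4 eTreg-specific. No site fell to the 5 B cell or the 5 myeloid genes listed.

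The sites lay differently around the 2 genes. Bach2 spans 347697 bp of chromosome 4 (32238413 to 32586109, mm10) on the plus strand. Of its sites 7 were inside the gene body, 1 was 2341 bp past the 3′ end and 1 was 21769 bp upstream of the 5′ end. Satb1 spans 97104 bp of chromosome 17 (51736187 to 51833290) on the minus strand. Of its sites 4 were inside, 1 was 502 bp past the 3′ end, and 1 was 645 bp upstream of the 5′ end. The other 4 Satb1 sites formed a group from 47115 to 73302 bp upstream. Exons and introns were not analysed here.

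Each gene had a site at its 5′ end. The Satb1 site (chr17:51833024-51833424) held the first base of the gene and reached 134 bases into the 250 bases before it. It was 1 of 19 cTreg-specific sites, out of 727, that overlapped a RefSeq promoter window (250 bases before to 50 after a transcript start). The share was 2.61%, against 12.9% of common sites and 1.90% of eTreg-specific sites. The Bach2 site (chr4:32238503-32238903) began inside the gene body, with its centre 290 bp downstream of the 5′ end. The one Bach2 promoter window in the table starts far downstream (chr4:32417185-32417484), and the nearest Bach2 site was 11755 bp from its upstream part. The upstream sequence of Satb1 is shown because a binding site covers part of it. The bases are on the minus strand (RefSeq, GRCm38.p6, chr17:51833291-51833540), and capitals mark the 134 bases inside the site.

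Satb1 upstream 250 bases: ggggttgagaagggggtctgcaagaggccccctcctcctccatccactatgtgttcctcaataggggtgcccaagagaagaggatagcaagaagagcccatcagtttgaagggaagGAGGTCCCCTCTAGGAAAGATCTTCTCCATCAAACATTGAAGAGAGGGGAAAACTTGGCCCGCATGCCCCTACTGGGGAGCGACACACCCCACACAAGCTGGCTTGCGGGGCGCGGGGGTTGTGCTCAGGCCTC

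This stretch had a GC content of 58.0%, against a median of 52.4% over the 32851 upstream windows of the table. It was searched on both strands for the forkhead word TGTTTAC, the core TGANTCA shared by AP-1 and BACH factors, the T and G repeat TTTGTTTG, and the RUNX word TGTGGT. None of these letters was found, and none was found in the upstream windows of the other 4 Satb1 starts or of Bach2. Over all upstream windows, 3.17% held the forkhead word, 6.75% the AP-1 and BACH core, 2.37% the repeat and 14.0% the RUNX word. The forkhead word and the repeat share the letters TGTTT and can overlap, and absence of a word says only that these letters are not in this window.

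On average over the 8 libraries the strongest signal of Satb1, and of the common sites of Bach2, was at the 5′ end, and IgG was high there too. At the Satb1 5′ end site the WT Foxp3 libraries (replicates 1 and 2) had normalised read counts of 106 and 251, R397W Foxp3 174 and 65.9, WT IgG 366 and 135, and R397W IgG 75.7 and 119. The genotypes overlapped, and so did Foxp3 and IgG, with the highest value in a WT IgG library. At the Bach2 5′ end site WT Foxp3 had 76.4 and 213, R397W Foxp3 126 and 222, WT IgG 74.0 and 104, and R397W IgG 174 and 374. Here too the genotypes overlapped in the Foxp3 libraries, and the highest library was R397W IgG replicate 2. These were the only sites of the 19 with reads in all 8 libraries. By the mean over all libraries they ranked at the 99.2nd percentile of cTreg-specific sites (Satb1) and at the 97.0th percentile of common sites (Bach2).

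Sites at promoter windows are described by class, and the Bach2 5′ end site itself overlapped none. Each class table has its own scaling factors, so values are compared within a class and not between classes. Common sites that overlapped a promoter window had a median of 67.1 in WT Foxp3 and 72.5 in WT IgG (mean of the 2 libraries per site), against 26.1 and 9.84 at common sites without one. The 19 cTreg-specific sites with a window had 55.1 and 47.8, against 18.5 and 11.6 without one. The 18 eTreg-specific sites with a window had 23.4 and 10.5, against 18.2 and 7.23. Reads were present in all 8 libraries at 66.5% of common, 36.8% of cTreg-specific and 11.1% of eTreg-specific sites with a window. The Satb1 5′ end site held 26.6% and 96.2% of the gene's reads in the WT Foxp3 libraries and 84.6% and 100% in WT IgG. In R397W Foxp3 it held 56.6% and 75.0%, and in R397W IgG 30.4% and 70.4%. At Bach2 the 5′ end share ran from 13.5% in WT Foxp3 replicate 1 to 92.4% in R397W IgG replicate 2.

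**Figure D2:**
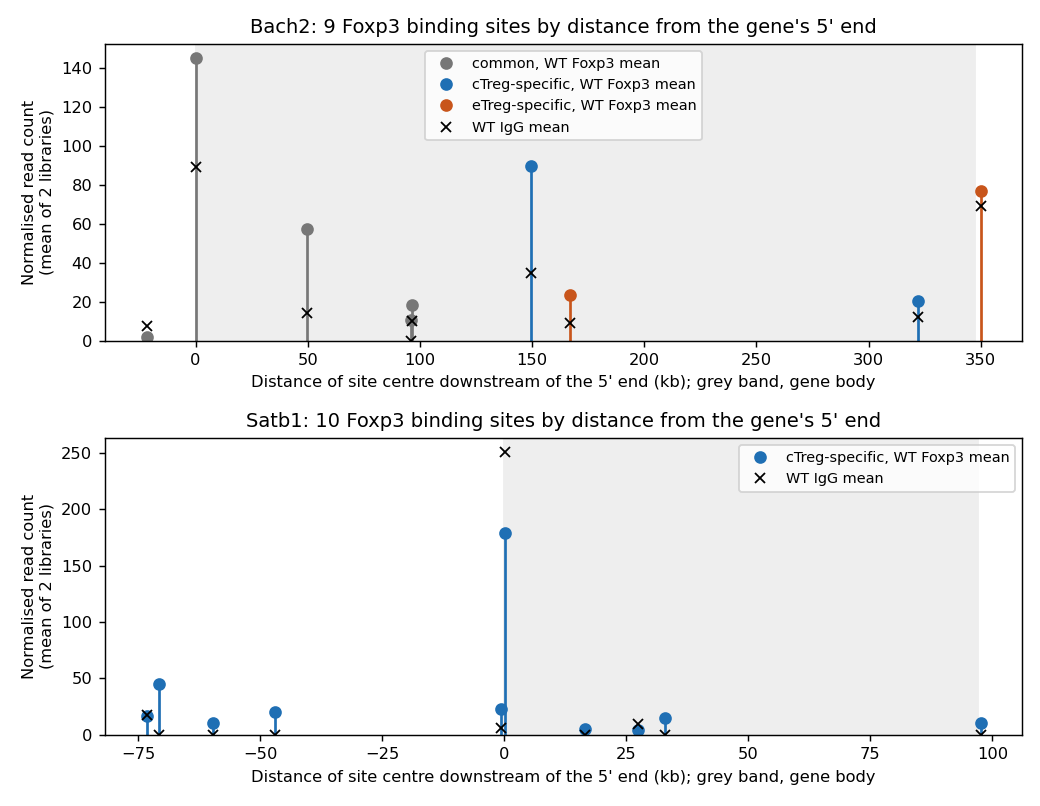
Mean normalised read count of the 2 WT Foxp3 libraries (coloured points, vertical axis) and of the 2 WT IgG libraries (crosses) against the distance of each site centre from the 5′ end of the gene in kb, with the gene body in grey. The points near 0 are the tallest for both genes, and at Satb1 the IgG cross (mean 251) lies above the Foxp3 point (mean 179). The Bach2 points belong to different classes, each scaled by its own factors, so their heights compare only within a class.

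With the 5′ end site set apart, the other Satb1 sites took a larger share of reads with anti-Foxp3 than with IgG in WT. In the replicates numbered 2 this rested on a single site, and the order in R397W also depended on a single site. The 9 other Satb1 sites took 0.124% of all listed reads in WT Foxp3 replicate 1 and 0.0262% in WT IgG replicate 1, a ratio of 4.73. In the replicates numbered 2 they had 19 reads with anti-Foxp3 and 0 with IgG, at least 4.63-fold higher against a floor of 3 reads per library. All 19 were at the site 645 bp upstream of the 5′ end. In R397W the shares were 0.0710% and 0.0718% (Foxp3 and IgG, replicate 1) and 0.0110% and 0.0298% (replicate 2), ratios of 0.988 and 0.370. The site 70840 bp upstream held 45 of the 80 and 76 of the 77 IgG reads. Without it, left out after its values were seen, R397W Foxp3 was above IgG in both replicates. Reads were 50 against 35 in replicate 1 (ratio 1.43) and 31 against 1 in replicate 2. Of those 31, 30 were at the site 645 bp upstream. With the site 70840 bp upstream left out, the WT ratio of replicate 1 was 3.27, and the 19 against 0 reads of replicate 2 stood as before. Over the other 697 cTreg-specific sites without a promoter window the WT ratios were 1.39 and 1.08 and R397W ratios 1.15 and 1.24. With all Satb1 sites kept the ratios were 0.997 and 1.76 in WT and 1.58 and 0.439 in R397W. Setting the 5′ end site apart was decided after its values were seen, and no test of these sums was made. Coverage moved with the WT result of these 9 sites. WT Foxp3 replicate 1 had reads at all 9 and WT IgG replicate 1 at 33.3% of them. Over the other 697 cTreg-specific sites without a promoter window the same libraries had reads at 98.6% and 74.5%. The part of coverage in the result was not tested.

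The count of sites varied by library. WT Foxp3 exceeded WT IgG at 7 of the 9 sites in replicate 1 (77.8%, against 67.6% of the other cTreg-specific sites without a promoter window) and at 1 of 9 in replicate 2 (11.1%, against 40.9%), where 8 sites had no reads with either antibody. R397W Foxp3 exceeded IgG at 3 sites, lay below it at 3 and was 0 with both at 3 in replicate 1 (33.3% above, against 44.8%). In R397W replicate 2 it was above at 2, below at 1 and 0 with both at 6 (22.2% above, against 32.3%). Satb1 was covered less than its class in every library but WT Foxp3 replicate 1. In WT Foxp3 replicate 2 it had reads at 2 of 10 sites, against 51.6% of cTreg-specific sites. In WT IgG replicate 1 it had reads at 4 of 10 sites, against 74.7%.

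At Bach2 the sites other than the 5′ end took 0.144% and 0.109% of reads in WT Foxp3 and 0.0642% and 0.108% in WT IgG, ratios of 2.25 and 1.02. In R397W the ratios were 0.984 and 10.0, and the value of 10.0 came from the site past the 3′ end, which held 478 of 522 reads in R397W Foxp3 replicate 2 and 0 in IgG replicate 2. Without that site, left out after its values were seen, the WT ratios over 7 sites were 1.91 and 2.31 and the R397W ratios 1.25 and 0.843. Over the other 4968 sites of all classes without a promoter window WT gave 1.13 and 1.17, and R397W 1.03 and 1.04. That comparison is not like for like, since the Bach2 5′ end site overlaps no promoter window and was set apart after its values were seen. With all Bach2 sites kept the ratios were 1.64 and 1.25 in WT and 0.845 and 1.25 in R397W.

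**Figure D3:**
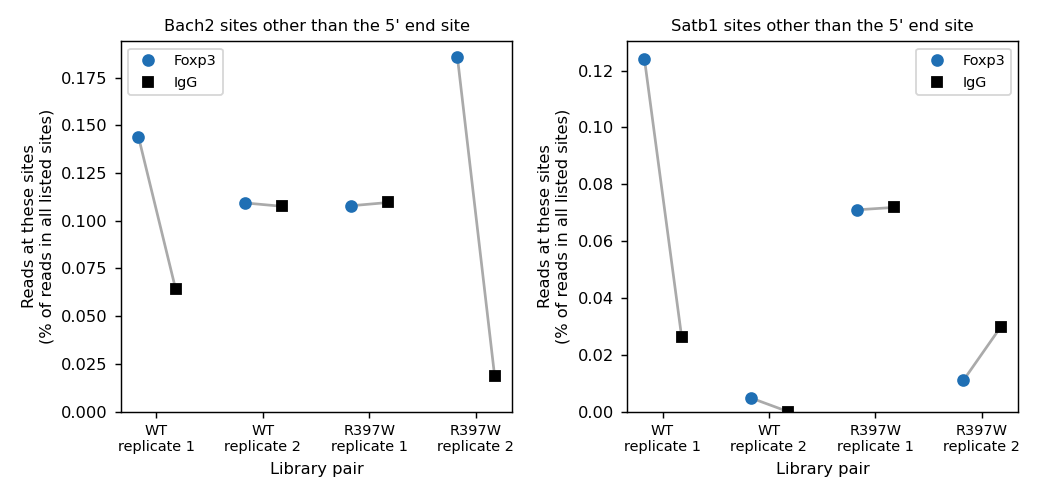
Reads at the sites other than the 5′ end site as a percentage of reads in all listed sites (vertical axis). Foxp3 (circles) and IgG (squares) of the same genotype and replicate number are joined. At Satb1 the WT replicate 1 pair falls from 0.124% to 0.0262%, while the R397W replicate 1 pair is level at 0.0710% and 0.0718%.

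Among the upstream Satb1 sites, the highest was 70840 bp from the gene (chr17:51903930-51904330). WT Foxp3 had 90.1 and 0, R397W Foxp3 48.9 and 0, WT IgG 0 in both libraries, and R397W IgG 97.3 and 49.6. In WT the signal was therefore seen with anti-Foxp3 in 1 library, and in R397W IgG was higher than Foxp3 in both replicates. The site 645 bp upstream of Satb1 (chr17:51833735-51834135) was the only other Satb1 site with reads in all 4 Foxp3 libraries. WT Foxp3 had 36.2 and 9.80 there, and R397W Foxp3 32.0 and 21.3. WT IgG had 12.01 and 0 and R397W IgG 23.8 and 0, below Foxp3 in each pair of the same number.

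The site 502 bp past the 3′ end of Satb1 (chr17:51735485-51735885) had WT Foxp3 values of 20.2 and 0, R397W Foxp3 8.43 and 0, WT IgG 0 in both libraries, and R397W IgG 4.32 and 0. All 4 libraries numbered 2 were at 0. The remaining 6 Satb1 sites had reads in 1 to 4 of the 8 libraries. They ranged from 9.26 to 41.2 in WT Foxp3 replicate 1 and were 0 in WT Foxp3 replicate 2. In 2 of them, 16601 bp inside the gene and 59801 bp upstream of it, WT Foxp3 replicate 1 was the single library with reads, at 10.9 and 21.0.

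At Bach2 the strongest cTreg-specific site lay deep in the gene body, 149624 bp downstream of the 5′ end (chr4:32387837-32388237). WT Foxp3 had 72.4 and 107, R397W Foxp3 85.9 and 0, WT IgG 26.6 and 42.4, and R397W IgG 49.7 and 0. Foxp3 exceeded IgG in every pair but R397W replicate 2, where both were 0. The eTreg-specific site past the 3′ end (chr4:32588250-32588650) had WT Foxp3 values of 109 and 44.1, R397W Foxp3 41.9 and 373, WT IgG 23.3 and 114, and R397W IgG 104 and 0. R397W Foxp3 replicate 2 stood far above the other libraries, and the order of Foxp3 and IgG changed between replicates in both genotypes.

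Only 2 of the 19 sites separated the genotypes in the Foxp3 libraries, both at Bach2 and in opposite directions. A common site 96542 bp downstream of the 5′ end (chr4:32334755-32335155) had WT Foxp3 values of 27.9 and 8.38 and no reads in either R397W Foxp3 library. WT IgG had 19.8 and 0 there, and R397W IgG 0 and 30.5, so an R397W IgG library exceeded both WT Foxp3 libraries. The common site upstream of the gene (chr4:32216444-32216844) had WT Foxp3 values of 3.64 and 0, R397W Foxp3 5.25 and 7.73, WT IgG 15.2 and 0, and R397W IgG 2.26 and 0. These Foxp3 values were 3 and 0 reads in WT and 2 and 12 in R397W. At common sites 3 reads equal 7.88 in R397W Foxp3 replicate 1. The value of 5.25 is below that limit, and the WT value of 8.38 at the other site is close to it. Over all sites, 12.6% were lower in R397W without overlap and 6.43% higher.

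The other 4 Bach2 sites varied as much. Inside the gene, 49693 bp from the 5′ end, WT Foxp3 was 112 and 2.79, R397W Foxp3 5.25 and 20.6, WT IgG 27.8 and 0, and R397W IgG 81.5 and 0. At the common site 95947 bp from the 5′ end, only WT Foxp3 replicate 1 (20.6) and R397W Foxp3 replicate 1 (2.63, a single read) had any. The eTreg-specific site 166817 bp from the 5′ end had WT Foxp3 values of 32.9 and 13.8 and R397W Foxp3 values of 14.7 and 0, and 1 IgG library (WT replicate 2) reached 18.5. The cTreg-specific site near the 3′ end of the gene body had WT Foxp3 values of 15.2 and 25.3, R397W Foxp3 62.3 and 0, WT IgG 24.0 and 0, and R397W IgG 43.2 and 0.

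**Figure D4:**
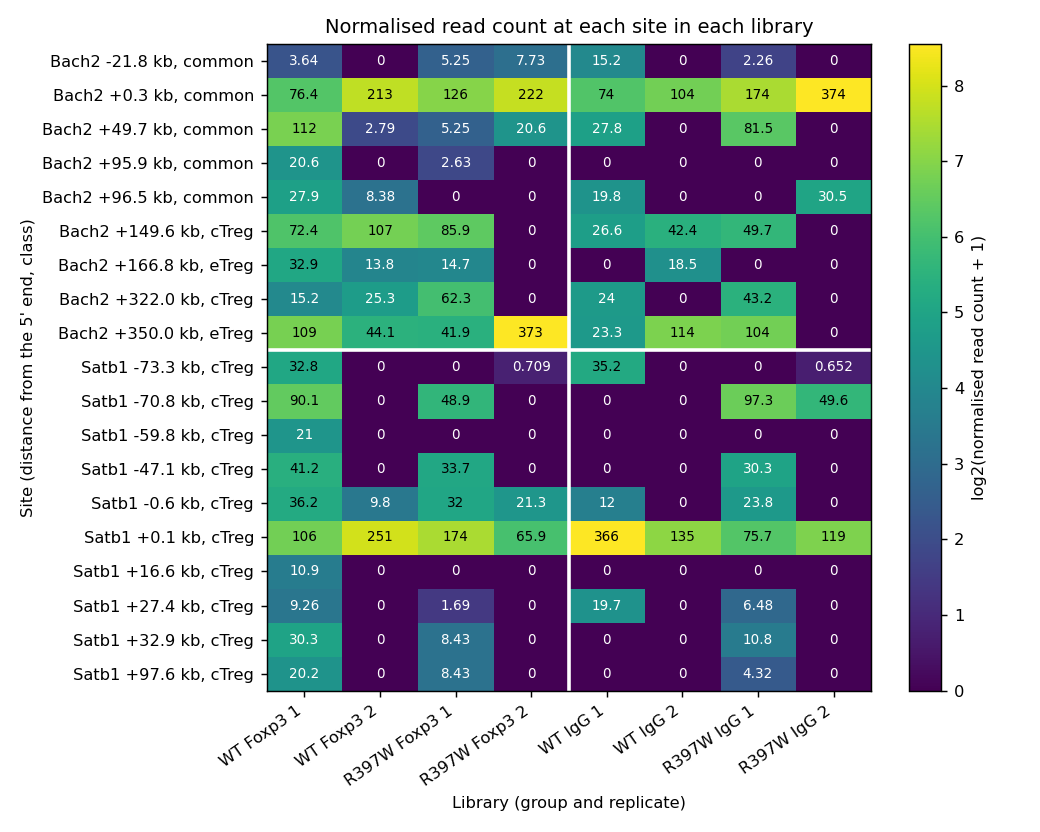
Normalised read count (printed in each cell, colour on a log2(value + 1) scale) for the 9 Bach2 and 10 Satb1 sites (rows, ordered by distance from the 5′ end) in the 8 libraries (columns). The rows at +0.3 kb (Bach2) and +0.1 kb (Satb1) are filled in every library, and most Satb1 cells of the libraries numbered 2 are 0.

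The genotypes were compared to ask whether Foxp3 with the R397W change occupies these sites differently. In limma, fitted on log2(normalised read count + 1) over all 5521 sites with Benjamini-Hochberg adjustment, none of the 9 Bach2 and none of the 10 Satb1 sites passed an adjusted p of 0.05, and none had an unadjusted p under 0.05. The background was 0% of all sites called, and 0.326% at unadjusted p under 0.05. In edgeR and DESeq2, run on recovered reads, none of the 19 sites was called or had an unadjusted p under 0.05, against 0.725% (edgeR) and 1.09% (DESeq2) of all sites at that p and 0% called. R397W minus WT was −4.04 (SE 2.66) on the log2(value + 1) scale at the Bach2 common site without R397W reads and −3.25 (SE 2.32) at the strongest cTreg-specific Bach2 site. It was 0.38 (SE 0.72) at the Bach2 5′ end and −0.60 (SE 0.78) at the Satb1 5′ end, where all libraries had reads. The median was −1.29 over Bach2 sites (6 lower, 3 higher) and −0.73 over Satb1 sites (9 lower, 1 higher). Over all 5521 sites it was −0.39 (3334 lower, 2123 higher). With each library left out in turn the Satb1 median ran from −3.10 (without WT Foxp3 replicate 2) to 1.02 (without WT Foxp3 replicate 1), and the Bach2 median from −2.98 to −0.35 without the same libraries. Within the replicates numbered 1 the medians were −1.11 (Bach2) and −1.45 (Satb1), and within those numbered 2 both were 0. Leaving out WT Foxp3 replicate 2 gave 1 Bach2 and 2 Satb1 calls, each at a site with no reads in either R397W Foxp3 library. Under that setting 11.6% of all sites were called, and the lone WT library is assumed to vary like the R397W libraries.

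The listed related genes are given for the same genotype comparison. No site of any list was called by limma or had an unadjusted p under 0.05. The median R397W minus WT was −0.49 over the 71 sites of the naive and resting list (46 lower, 25 higher) and −1.22 over the 37 sites of effector Treg genes (25 lower, 12 higher). It was −0.85 over core Treg genes, 0.10 over AP-1 and BATF factors, −0.046 over the relatives and partners of BACH2 and 0.75 over the chromatin organisers, against −0.39 over all sites. Against the 12.6% lower and 6.43% higher without overlap over all sites, R397W was lower at 8 and higher at 1 of the 71 naive and resting sites, and lower at 4 and higher at 3 of the 37 effector Treg sites. The same counts were 5 and 1 of 23 for core Treg genes, 1 and 2 of 7 for AP-1 and BATF factors, 0 and 0 of 4 for the relatives and partners of BACH2, and 0 and 2 of 3 for the chromatin organisers.

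Foxp3 was set against IgG in a limma fit over all 8 libraries. In WT the median Foxp3 minus IgG on the log2(value + 1) scale was 1.85 over Bach2 sites (8 of 9 above 0) and 2.22 over Satb1 sites (7 of 10). Over all sites the WT median was 1.27, with 4100 of 5521 sites above 0. In R397W the median was 0.39 over Bach2 and 0.01 over Satb1 sites, against 0.05 over all sites. With each library left out it ran from 0 to 2.89 (without R397W IgG replicate 1) over Bach2 sites. Over Satb1 sites it ran from −0.86 (without R397W Foxp3 replicate 1) to 0.43 (without R397W Foxp3 replicate 2). None of the 19 sites was called in WT, where 0.0725% of all sites were, or in R397W, where 0% were. At unadjusted p under 0.05 there were 0 member sites in WT (2.57% of all sites) and 1 in R397W (1.47%), the Bach2 site past the 3′ end. There R397W Foxp3 minus IgG was 3.63 (SE 1.83, adjusted p = 1 in limma). That difference ran from 0.27 without R397W IgG replicate 2 to 6.99 without R397W IgG replicate 1. Without WT Foxp3 replicate 2, 2 Satb1 sites were called in WT, as were 3.42% of all sites. The WT median of Satb1 fell to 0 without WT Foxp3 replicate 1, and that of Bach2 stayed between 0.78 and 1.85 with any library left out. DESeq2 gave an unadjusted p under 0.05 in WT at 1 Satb1 site and edgeR at none, against 3.57% and 0.761% of all sites. In R397W neither tool did so (1.47% and 0.362% of all sites), and neither called a member.

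The difference between the genotypes in Foxp3 minus IgG was tested in the same fit. Its median was −1.14 over Bach2 sites and −1.79 over Satb1 sites, against −1.02 over all sites, and no site of either gene was called by limma, edgeR or DESeq2, as 0% were over all sites in limma. None of the 19 had an unadjusted p under 0.05 in limma or edgeR and 1 did in DESeq2, while 1.65% of all sites did in limma, 0.543% in edgeR and 1.97% in DESeq2. Without WT Foxp3 replicate 2, 2 Satb1 sites and 3.3% of all sites were called. With each library left out the medians ran from −2.22 to 1.21 (Bach2) and from −3.79 to 0.038 (Satb1). The Satb1 median was above 0 without WT Foxp3 replicate 1, and the Bach2 median without that library, R397W Foxp3 replicate 2 or R397W IgG replicate 1. Without the lowest 25% of sites, which left 5 Satb1 sites, the Satb1 median was −0.03. Between the IgG libraries themselves the R397W minus WT median was 0 over Bach2 and 0.23 over Satb1 sites, against 0.33 over all sites, with no member called by limma, edgeR or DESeq2 (0.0362% of all sites in limma). At unadjusted p under 0.05 there were 0 members in limma (2.25% of all sites), and 1 Satb1 site each in edgeR (0.815%) and DESeq2 (3.95%). With each library left out the medians ran from −2.14 (without R397W IgG replicate 1) to 0.85 (without WT IgG replicate 1) over Bach2 and from 0 to 1.56 (without R397W IgG replicate 2) over Satb1 sites.

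Summed over all its sites, Bach2 took 0.196 ± 0.0417% of listed reads in WT Foxp3 and 0.229 ± 0.111% in R397W Foxp3 (SD, n = 2). Satb1 took 0.149 ± 0.0288% and 0.104 ± 0.0845%. With IgG the shares were 0.141 ± 0.0554% and 0.212 ± 0.0471% for Bach2 and 0.121 ± 0.0684% and 0.102 ± 0.00198% for Satb1. Differences between genotypes were within the SD of at least 1 of the groups compared, except for Bach2 with IgG, where the difference exceeded both SDs. The libraries of that comparison were 0.102% and 0.180% in WT and 0.179% and 0.245% in R397W, and they overlapped at the edge. Satb1 in R397W Foxp3 replicate 2 was the lowest library, at 0.0441% (95% Wilson interval 0.0370 to 0.0526, counting error only).

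Likeness between genes was measured as Pearson's r of the mean log2(value + 1) over a gene's sites across the 8 libraries, among genes with 5 or more sites. Bach2 was most like Mgat5 (r = 0.93), Ikzf2 (0.93) and Apbb1ip (0.92), and Satb1 was most like Chd2 (0.98), Ikzf1 (0.97) and Nrp1 (0.97). The median r over 191 genes was 0.78 for Bach2 and 0.87 for Satb1, and r between Bach2 and Satb1 was 0.80. All genes share the coverage differences between the libraries, so high values of r are general.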

How the data were processed

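The deposited files give 8 libraries at sites in 3 class tables, as a signal that the file names describe as spike-in normalised by the authors. Per the submitters' processing notes, the tools were Bowtie2 2.5.2 with DiffBind 3.12.0, and genome builds dm6 and mm10 are named, none with a role. Peak calling and duplicate removal are not given in the sources used here. Within each library and table, 100% of values were whole multiples of the smallest step (tolerance 0.01), so whole reads were recovered by division. Most sites span 400 bp.

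The main test was limma 3.58.1 (R 4.3.3, trended, two-sided) on log2(value + 1), with no filter, on 4 Foxp3 libraries for the genotypes and on all 8 for the other contrasts. Fold changes on that scale understate weak sites. A permutation of 2 against 2 cannot go below p = 0.33, so none was used. Other settings tried were a pseudocount of 0.5 or 5, a filter dropping the lowest 25% of sites, equal totals, edgeR 4.0.16 and DESeq2 1.42.0 on recovered reads, a replicate block, no trend, each library left out, and gene limits of 10 kb or the gene body. The fits of R397W minus WT in the Foxp3 libraries were run on simulated data, and the other contrasts were not. The simulation did not copy the lower coverage of the libraries numbered 2.

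Members, gene lists and tests were chosen with earlier results of these data known. Values in every library are given for the 3 highest sites of each gene, those within 5 kb of a gene end, any called site, and up to 2 sites per gene without overlap between genotypes, and the other sites are given by their values or ranges. Genes and promoter sequences are from RefSeq (GRCm38.p6), and both genes matched by symbol. Site sequences were not used here. Another gene that the naming rule selects is not reported here.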

Additional observations from a re-analysis of the deposited data

Results flagged for a closer look

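At the 5′ end site of Bach2 (chr4:32238503-32238903), normalised Foxp3 values lay above IgG in both WT pairs and below it in both R397W pairs. As reads, WT replicate 1 had fewer with anti-Foxp3 (63 of 279737 listed) than with IgG (112 of 297706), so the order in that pair depends on the scaling. On the log2(value + 1) scale, the WT pairs numbered 1 and 2 gave Foxp3 minus IgG of 0.045 and 1.03, and the R397W pairs −0.46 and −0.75. The difference between the genotypes was −1.14 (SE 1.12, adjusted p = 1 in limma), and leaving out each library in turn gave −1.88 to −0.41. With the libraries scaled to equal totals the difference was −0.76 (SE 1.41). IgG itself was higher in both R397W libraries (174 and 374) than in both WT libraries (74.0 and 104) at this site, with R397W minus WT of 1.53 (SE 0.79, adjusted p = 1 in limma). As a share of listed reads the genotypes overlapped, with R397W IgG replicate 1 (77 of 111359) below WT IgG replicate 2 (209 of 288223). The part of the IgG libraries in the difference was not tested.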

How the results depend on the processing

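Of the member sites' results, no count of calls changed under another pseudocount, filter, scaling, tool, trend or the replicate block, and some changed when WT Foxp3 replicate 2 was left out. With each library left out, calls ran from 0 to 1 (Bach2) and 0 to 2 (Satb1) for R397W minus WT, and from 0 to 2 for Satb1 in WT Foxp3 minus IgG and in the difference between genotypes. The Satb1 medians of these 2 moved with edgeR (6.21 and −5.73) and DESeq2 (5.76 and −5.33). Those values come from recovered reads and are not on the log2(value + 1) scale, so their size cannot be set against the limma medians. Several Satb1 sites, such as that 70840 bp upstream, had no reads in either WT IgG library. The cause of the move was not tested. With the replicate block the median R397W minus WT was −1.29 (Bach2) and −0.73 (Satb1), and no member was called. Deviations of same-numbered libraries correlated across sites at 0.17 between WT and R397W Foxp3, 0.087 between the IgG groups, and 0.038 (WT) and 0.14 (R397W) between antibodies, and the labels do not say that a number marks the same mouse, so the numbers were not used as a block in the main tests. Libraries of the same number are set side by side in the text as descriptions. Titles give Foxp3 and IgG libraries of a number the same Treg sample name within a genotype. The main fit of Foxp3 minus IgG left this pairing out. The replicate block used it, for Foxp3 minus IgG and for the difference between the genotypes, and again no member was called.

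Single sites changed direction, R397W minus WT, when a library was left out. The ranges were −0.35 to 1.12 (Bach2 5′ end), −0.72 to 2.41 (Bach2 past the 3′ end), −2.79 to 1.62 (Satb1 past the 3′ end), −1.30 to 0.088 (Satb1 5′ end), −0.46 to 1.33 (645 bp upstream of Satb1) and −3.69 to 2.82 (70840 bp upstream). The log2 ratio of shares ran from −0.38 to 0.65 (Bach2, R397W over WT), 0.12 to 0.95 (Bach2, Foxp3 over IgG, WT), −0.49 to 0.54 (Bach2, R397W), −1.75 to 0.14 (Satb1, R397W over WT), −0.19 to 1.03 (Satb1, WT) and −1.21 to 0.68 (Satb1, R397W). Without the 5′ end site, Foxp3 over IgG was 1.20 for Bach2 in R397W and 2.30 for Satb1 in WT. The Bach2 value included the site past the 3′ end, which held 478 of 522 reads in R397W Foxp3 replicate 2. Within the libraries numbered 2 it was −1.19 for Satb1 in R397W, and R397W over WT was −1.54. Both settings were added after seeing the data, and the cause of the other values was not tested.

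A limit of 10 kb left 6 Satb1 sites and the gene body alone 4, all cTreg-specific, since fewer sites qualify. In any library a count of 0 allows up to 3 reads at a site, and the cause of the lower coverage in the libraries numbered 2 was not tested.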
